A study of Mus musculus with 6 samples.

Results

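Mitochondria in cultured fat cells fuse and divide, and 8 genes of that machinery were followed here across all 6 libraries of the series: Mfn1, Mfn2 and Opa1, whose products fuse mitochondrial membranes, Oma1, which encodes a protease that cuts Opa1, and Dnm1l, Mief1, Mff and Fis1, whose products take part in division. They are rows of a count table of 53801 genes, picked by gene name, with earlier results of these data already known. All 8 matched 1 row each and all 8 had enough counts to be tested among 14816 genes. The cells were stromal vascular fraction cells (what is left of fat tissue once adipocytes are removed, including their progenitors), taken from the inguinal fat of mice labelled wild type or Ythdf1 knockout. In both groups they had been cultured and put through adipogenic induction for 4 days. There were 3 libraries per genotype, described by the series as biological replicates. The labels do not state the allele, the age or sex of the mice, whether the deletion is in the whole animal, or whether animals were pooled.

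Mitochondrial shape is set by the balance of fusion and division. The mitofusins Mfn1 and Mfn2 are GTPases of the outer membrane that tether and merge neighbouring mitochondria, and Opa1, a dynamin-like GTPase, merges the inner membranes and shapes the cristae. Dnm1l, better known as Drp1, is a cytosolic dynamin-like GTPase that is brought to the outer membrane by receptors, among them Mff and Mief1, and constricts the organelle there. In fat, Mfn2 also sits at contacts between mitochondria and lipid droplets, and mitochondria gain mass as progenitors become adipocytes.

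Total counts per library ran from 16619605 to 20089138, so that 3 counts corresponded to 0.146 to 0.185 CPM (library-size-scaled counts, relative to the tested genes). Ythdf1 itself, the m6A reader that the knockout targets, had between 754 and 892 counts per knockout library and between 1005 and 1114 per wild-type library. Its level was 43.8 ± 1.16 CPM against 61.8 ± 1.34 CPM (mean ± SD, n = 3 each), so most of its signal remained in the libraries labelled knockout. The 10 adipocyte markers listed were present in every library and all 10 were higher in the knockout, with a summed level of 12090 to 16960 CPM against 2085 to 3283 CPM. Of 10 progenitor and fibroblast markers 6 were lower and 1 higher. All 6 myofibroblast markers and all 7 markers of dividing cells were lower. Of 8 macrophage markers 7 were higher, with a summed level of 335 CPM in knockout replicate 3, 153 and 136 CPM in replicates 1 and 2, and 49.3 to 57.7 CPM in wild type. The 10 gut epithelium markers were all lower in the knockout and summed to at most 58.0 CPM in any library. Among them, the call for Muc2 ended in 9 of 17 other settings of the test. The 6 endothelial markers summed to 22.4 to 34.9 CPM, with 1 higher (Tek, a call that ended in 8 of 17 other settings) and 0 lower. Libraries of whole cultures cannot tell fewer cells of a type from less RNA per cell, and the part of these cell types in the values that follow was not tested.

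Mfn2 and Opa1, both fusion genes, differed most between genotypes. The division genes Mief1 and Dnm1l rose by folds of 1.37 and 1.27, near the 1.31 of the fusion gene Mfn1. The division genes Mff and Fis1 did not pass the test. Of the 8 members, 5 were higher in the knockout (Mfn1, Mfn2, Opa1, Dnm1l and Mief1), 0 were lower, and 3 did not pass the test (Oma1, Mff and Fis1). A gene passes here if its p from the quasi-likelihood test of edgeR, adjusted over all genes by Benjamini-Hochberg, is under 0.05. Of all genes tested, 44.3% passed, 22.6% as higher and 21.7% as lower. The median log2 fold change of the 8 was 0.37, against 0.01 over all genes. The 5 that passed were also the 5 whose knockout values all lay above the wild-type values, which was so for 27.9% of all genes.

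Mfn2 (ENSMUSG00000029020; chromosome 4, 147873599 to 147904704, minus strand, GRCm38) had the highest CPM of the 8 in the knockout. It was at 191, 195 and 187 CPM in knockout replicates 1 to 3 and at 88.2, 102 and 106 CPM in wild-type replicates 1 to 3. Each knockout library was above each wild-type library by a wide margin, and the knockout libraries lay close together. The knockout-to-wild-type fold was 1.94 (95% interval 1.69 to 2.22), or 0.95 ± 0.09 (SE) on the log2 scale (edgeR adjusted p = 9.78e-06). By the absolute log2 fold change it exceeded 82.0% of tested genes.

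Opa1 (ENSMUSG00000038084; chromosome 16, 29579334 to 29654884, plus strand) was next. It was at 135, 142 and 137 CPM in the knockout libraries and 71.9, 83.0 and 77.0 CPM in the wild-type libraries. The genotypes did not overlap. The fold was 1.78 (95% interval 1.57 to 2.03; log2 fold change 0.83 ± 0.08, edgeR adjusted p = 1.42e-05).

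Mfn1 (ENSMUSG00000027668; chromosome 3, 32529465 to 32579239, plus strand), the paralog of Mfn2, rose less. It was at 54.5, 60.7 and 52.6 CPM in the knockout libraries and 39.5, 43.4 and 44.8 CPM in the wild-type libraries. The lowest knockout value was still above the highest wild-type value. The fold was 1.31 (95% interval 1.14 to 1.51; log2 fold change 0.39 ± 0.09, edgeR adjusted p = 0.00461), a size near the middle of all genes, since 53.2% of tested genes had a smaller absolute log2 fold change.

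**Figure D1:**
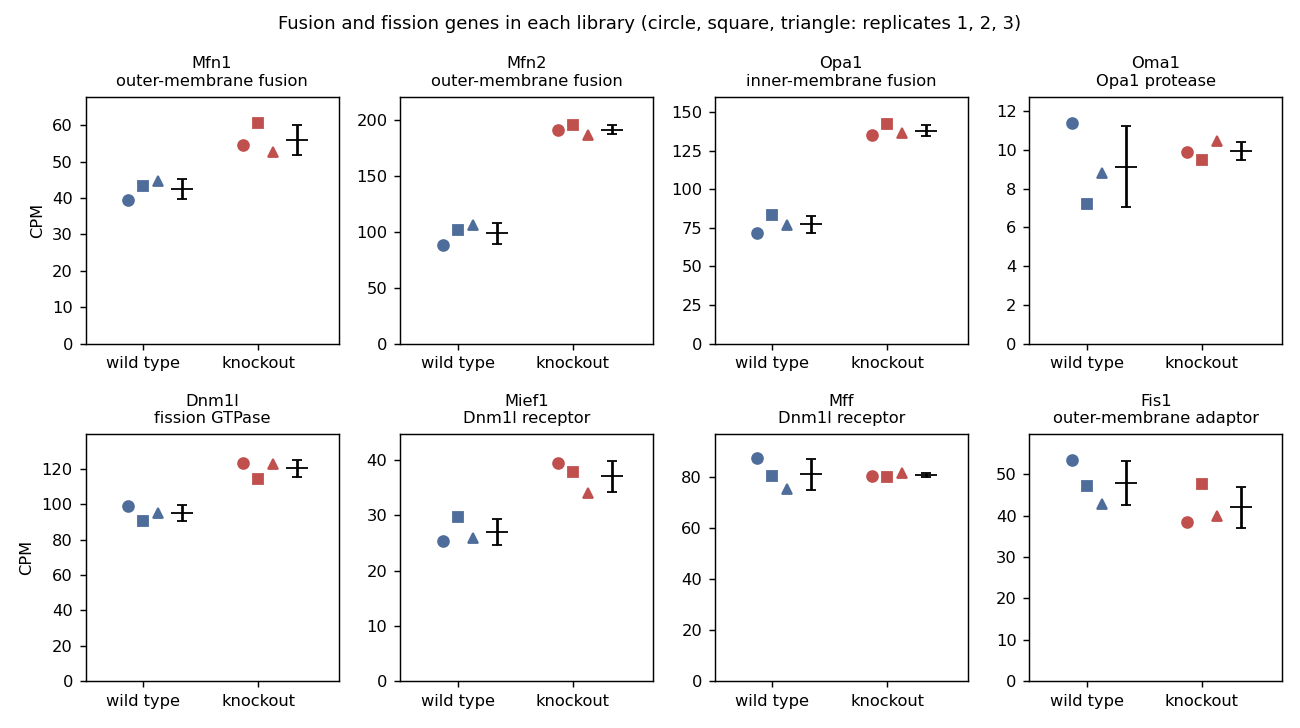
CPM of the 8 genes in each library, wild type in blue and knockout in red, with the mean and SD (n = 3) in black. Mfn1, Mfn2, Opa1, Dnm1l and Mief1 have all knockout points above all wild-type points, and Oma1, Mff and Fis1 overlap.

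Oma1 (ENSMUSG00000035069; chromosome 4, 103313812 to 103371868, plus strand) encodes the stress-activated protease of the inner membrane that cleaves the long form of Opa1 and so stops inner-membrane fusion. It was the lowest of the 8, with 167 to 214 counts in the knockout and 117 to 201 in the wild-type libraries. That corresponded to 9.90, 9.49 and 10.4 CPM in knockout and 11.4, 7.23 and 8.80 CPM in wild type. The knockout values lay inside the range of the wild-type values. The fold was 1.09 (95% interval 0.836 to 1.41; edgeR adjusted p = 0.607), so a change of the size seen for Mfn1 or Mief1 lies within its interval.

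Dnm1l (ENSMUSG00000022789; chromosome 16, 16312230 to 16358959, minus strand), the division GTPase, rose modestly. It was at 124, 114 and 123 CPM in the knockout libraries and 99.3, 90.4 and 95.2 CPM in the wild-type libraries. No knockout library fell into the wild-type range. The fold was 1.27 (95% interval 1.12 to 1.43; log2 fold change 0.34 ± 0.08, edgeR adjusted p = 0.0052). A processed pseudogene, Gm13719, is 91.1% identical to Dnm1l over 2153 aligned bases, but it had at most 1 count in any library.

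Mief1 (ENSMUSG00000022412; chromosome 15, 80234018 to 80253371, plus strand), the gene for the outer-membrane protein MiD51 that binds and recruits Dnm1l, was at 39.5, 37.9 and 34.02 CPM in the knockout libraries and 25.3, 29.8 and 26.0 CPM in the wild-type libraries. Again the genotypes did not overlap. The fold was 1.37 (95% interval 1.18 to 1.60; log2 fold change 0.46 ± 0.10, edgeR adjusted p = 0.00363). A second coding gene model, AC140267.1, shares 213 exonic bases with Mief1 on the same strand and had 0 counts in every library. How reads over the shared bases were assigned is not known, so these counts do not show whether Mief1 received them.

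Mff and Fis1, the remaining division genes of the 8, did not pass. Mff (ENSMUSG00000026150; chromosome 1, 82724890 to 82752394, plus strand), a tail-anchored receptor of Dnm1l, was at 80.4, 80.1 and 81.6 CPM in the knockout libraries and 87.4, 80.4 and 75.3 CPM in the wild-type libraries. The knockout values were within 2 CPM of each other and inside the wild-type range. The fold was 0.997 (95% interval 0.879 to 1.13; edgeR adjusted p = 0.967), and only 0.891% of tested genes had a smaller absolute log2 fold change.

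Fis1 (ENSMUSG00000019054; chromosome 5, 136953275 to 136966234, plus strand) encodes a small tail-anchored protein of the mitochondrial and peroxisomal outer membrane that was first described as a division factor. It was at 38.6, 47.8 and 40.0 CPM in the knockout libraries and 53.6, 47.2 and 42.9 CPM in the wild-type libraries. Knockout replicate 2 lay among the wild-type values and the other two below them. The fold was 0.879 (95% interval 0.742 to 1.04; log2 fold change -0.19 ± 0.11, edgeR adjusted p = 0.201). Without knockout replicate 2 the log2 fold change was -0.28 and passed (edgeR adjusted p = 0.0478), and it also passed in limma-voom with quality weights (-0.24, adjusted p = 0.0419). The fall was smaller without wild-type replicate 1 (-0.10, edgeR adjusted p = 0.552) and without knockout replicate 1 (-0.12, edgeR adjusted p = 0.501). The size and the call for Fis1 therefore depend on single libraries, in both directions, and on the tool.

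**Figure D2:**
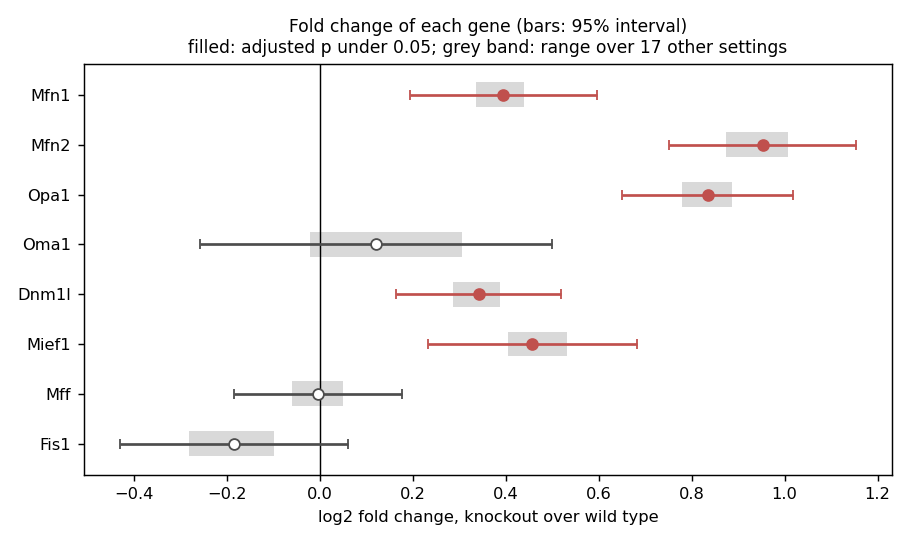
Log2 fold change of each gene, knockout over wild type, with its 95% interval; filled points passed the test and the grey band is the range over 17 other settings. Mfn2 and Opa1 lie between 0.83 and 0.95, Mief1, Mfn1 and Dnm1l between 0.34 and 0.46, and the intervals of Oma1, Mff and Fis1 cross 0.

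Differences between members of a library do not depend on how libraries are scaled, and 3 pairs were compared. Mfn2 exceeded Mfn1 by 1.81, 1.69 and 1.83 log2 CPM units in knockout replicates 1 to 3 and by 1.16, 1.23 and 1.245 in wild-type replicates 1 to 3. The 2 genotypes did not overlap, and the mitofusin pair was thus shifted towards Mfn2 by 0.56 on the log2 scale. Opa1 exceeded its protease gene Oma1 by 3.71 to 3.90 in the knockout and 2.66 to 3.52 in wild type, a shift of 0.69 that also did not overlap. That shift was 0.469 without wild-type replicate 1 and 0.899 without wild-type replicate 2, so its size depends on single wild-type libraries. Mff minus Fis1 was 1.06, 0.745 and 1.03 in the knockout and 0.706, 0.77 and 0.81 in wild type, with overlap and a shift of 0.18. Without knockout replicate 2 the shift was 0.283 and the genotypes did not overlap, so the size and the overlap of this pair rest on that library. In a 2-sided exact permutation test over the 6 libraries the p-values were 0.1, 0.1 and 0.3, or 0.15, 0.15 and 0.3 with Benjamini-Hochberg adjustment over the 3 pairs. With 3 libraries against 3 the smallest p this test can give is 0.1, so no pair could pass 0.05.

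**Figure D3:**
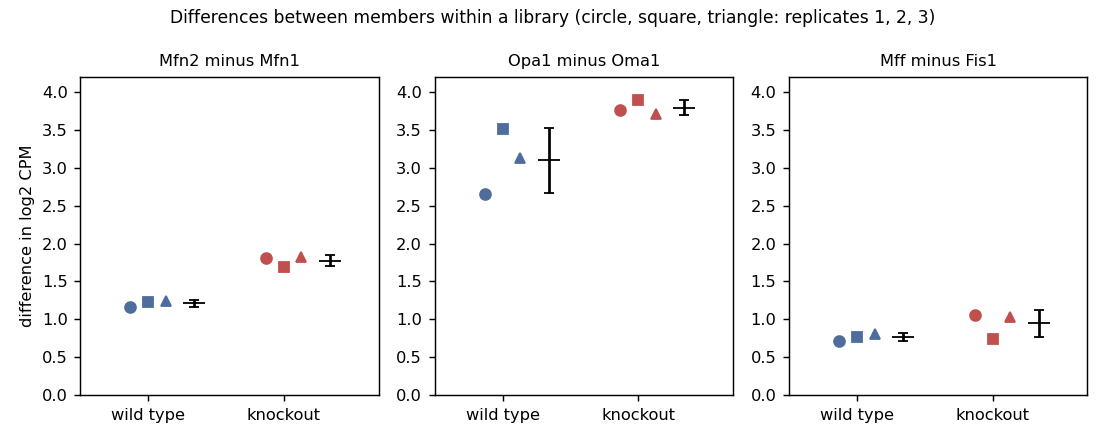
Difference in log2 CPM between 2 genes of the same library for the 3 pairs, with the mean and SD (n = 3) in black. Mfn2 minus Mfn1 and Opa1 minus Oma1 are higher in every knockout library than in any wild-type library, and Mff minus Fis1 overlaps.

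Levels of different genes can be compared per length. As CPM per kilobase of the longest coding transcript, the wild-type order was Fis1 (50.5 ± 5.65), Mff (38.8 ± 2.91), Dnm1l (23.9 ± 1.12), Mfn2 (22.8 ± 2.16), Opa1 (12.4 ± 0.886), Mfn1 (9.33 ± 0.599), Mief1 (5.25 ± 0.466) and Oma1 (4.77 ± 1.09; SD, n = 3). The libraries of Dnm1l and Mfn2 overlapped, as did those of Mief1 and Oma1, and other neighbours in this order did not. In the knockout Mfn2 (44.0 ± 0.970) moved past Dnm1l (30.3 ± 1.27) and Mff (38.7 ± 0.380), into the range of Fis1 (44.4 ± 5.23). Per kilobase, the ratio of Mfn2 to Mfn1 was 2.43 ± 0.0783 in wild type and 3.60 ± 0.190 in the knockout. The order leans on the transcript chosen. Mff has 16 annotated transcripts, its longest coding transcript is 2087 bases and its merged exons are 9757 bases, and with merged exons Mff ranked 5 of 8 in wild type in place of 2. With merged exons Mfn2 was already above Dnm1l and Mff in wild type (19.0 against 18.3 and 8.30 CPM per kilobase), and in the knockout it was above Fis1 (36.8 against 24.6), so its place relative to these 3 genes depends on the length used.

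**Figure D4:**
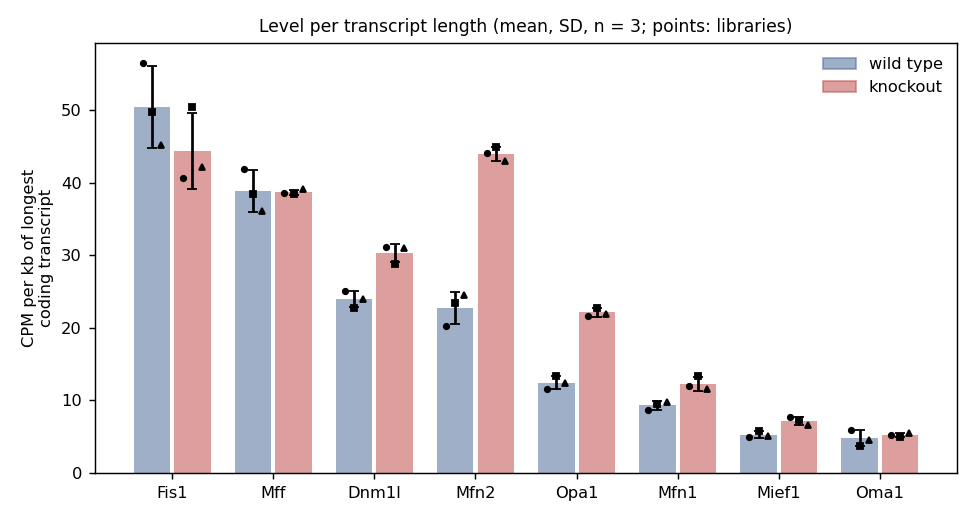
CPM per kilobase of the longest coding transcript, mean and SD of 3 libraries per genotype, with each library as a point. Fis1 and Mff lead in wild type at 50.5 and 38.8, and Mfn2 goes from 22.8 in wild type to 44.0 in the knockout.

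Promoters of the fusion GTPases are shown because these members rose, with that of Fis1, which did not pass, for comparison. All 8 genes matched RefSeq promoter windows of 300 bases on GRCm38.p6, from 250 bases before to 50 bases after an annotated start. They are written 5′ to 3′ on the gene's strand, with matches to any searched motif in capitals. The windows are chr3:32529232-32529531 (plus strand) for Mfn1, chr4:147904649-147904948 (minus strand, 1 of 3 windows) for Mfn2, chr16:29579084-29579383 (plus strand) for Opa1 and chr5:136953025-136953324 (plus strand, 1 of 2 windows) for Fis1.
Mfn1: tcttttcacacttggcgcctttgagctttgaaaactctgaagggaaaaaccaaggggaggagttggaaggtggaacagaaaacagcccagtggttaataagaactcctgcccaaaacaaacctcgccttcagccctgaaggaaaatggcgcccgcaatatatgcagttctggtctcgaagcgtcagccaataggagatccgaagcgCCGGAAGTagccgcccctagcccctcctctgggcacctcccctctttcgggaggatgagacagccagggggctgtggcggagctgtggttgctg
Mfn2: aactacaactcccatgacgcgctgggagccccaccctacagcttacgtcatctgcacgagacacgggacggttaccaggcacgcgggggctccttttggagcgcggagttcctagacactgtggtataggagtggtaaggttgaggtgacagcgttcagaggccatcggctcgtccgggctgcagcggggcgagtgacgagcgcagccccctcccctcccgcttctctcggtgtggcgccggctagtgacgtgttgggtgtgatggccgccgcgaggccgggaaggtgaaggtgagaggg
Opa1: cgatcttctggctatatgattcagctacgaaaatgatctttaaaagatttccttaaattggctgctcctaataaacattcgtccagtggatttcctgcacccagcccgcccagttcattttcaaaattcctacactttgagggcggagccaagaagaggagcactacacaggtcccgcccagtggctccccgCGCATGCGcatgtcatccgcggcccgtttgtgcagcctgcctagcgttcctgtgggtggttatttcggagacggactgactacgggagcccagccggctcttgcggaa
Fis1: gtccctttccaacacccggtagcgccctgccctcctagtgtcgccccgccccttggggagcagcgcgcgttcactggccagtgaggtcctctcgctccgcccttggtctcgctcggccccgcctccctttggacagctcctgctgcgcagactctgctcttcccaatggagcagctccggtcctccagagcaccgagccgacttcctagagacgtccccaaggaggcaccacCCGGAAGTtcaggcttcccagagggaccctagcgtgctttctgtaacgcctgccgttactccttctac

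Motif letters searched on both strands were CCGGAAGT (ETS factors such as GABPA), CGCATGCG (NRF1), TNAAGGTCA (ESRRA), TGACGTCA (CRE), CACGTG (E-box) and AAGATGGCG (YY1), none of which overlapped in these windows. CCGGAAGT was found in the windows of Mfn1 (44 bases before the start), Fis1 (18 bases before) and Mief1, that is, in 3 of 8 members and in 4.31% of the 27025 genes with a window. CGCATGCG was found in Opa1 alone among the 8, 58 bases before the start, and in 2.07% of genes. The other 4 motifs were found in none of the members' windows and in between 1.43% (TNAAGGTCA) and 8.09% (CACGTG) of genes. The ETS letters stood in windows of Mfn1 and Mief1, which rose, and of Fis1, which did not pass. Further matches lay 11 bases after the start in Mief1 and, in window 2 of Fis1, 19 bases after the start of that window's transcript. The members' windows held 8 to 33 CG dinucleotides, against a median of 7 over all windows, and CCGGAAGT contains CG. The shares of members and of all genes are therefore not like for like, and these matches are descriptions of letters in short windows.

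There were 6 lists of genes around the 8 (fusion, Opa1 processing, division, modifiers, transport and mitophagy). Each held more genes higher than lower in the knockout, where 22.6% of all genes tested were higher and 21.7% lower. The lists are short, some of their calls ended in other settings, and differences between these lists were not tested. Of 6 further genes of fusion 5 were tested, 3 rose and 1 fell (median log2 fold change 0.41). Miga2, whose outer-membrane product promotes mitofusin-dependent fusion and binds lipid droplets in adipocytes, reached 90.9 ± 12.2 CPM in the knockout against 24.1 ± 2.20 CPM (log2 fold change 1.91). Its paralog Miga1 was low and fell, from 5.85 ± 0.275 in wild type to 3.89 ± 0.153 CPM (-0.59), a call that ended without wild-type replicate 1 (edgeR adjusted p = 0.0608). Slc25a46, an outer-membrane protein gene linked to lipid flux and fusion, rose by 0.58, and Stoml2, whose product is needed for stress-induced hyperfusion, by 0.41. Msto1 was at 17.5 ± 0.316 against 17.5 ± 1.02 CPM.

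Of 8 genes for proteases and scaffolds that act on Opa1 or relay Oma1 activity, 6 rose and 0 fell (median 0.60). The inner-membrane protease subunit gene Afg3l2 reached 134 ± 11.9 CPM in the knockout against 60.9 ± 4.29 CPM (1.14), and Afg3l1 rose by 0.53. The prohibitin genes Phb and Phb2, whose ring-shaped complexes hold the long form of Opa1, rose by 1.005 and 0.91. Dele1, which encodes the Oma1 substrate that carries mitochondrial stress to the cytosol, and Parl rose by 0.63 and 0.57. Yme1l1, the other Opa1-cleaving protease gene, did not pass at 179 ± 3.89 CPM in the knockout and 195 ± 19.9 CPM in wild type (edgeR adjusted p = 0.316), nor did Spg7 (log2 fold change 0.03).

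Of 9 tested genes that help division, 3 rose, 1 fell and 5 did not pass (median 0.03). These are the same numbers of higher and lower genes as among the 5 fusion genes above, and the share that passed is near the 44.3% of all genes. Mtfp1, an inner-membrane division gene, reached 7.02 ± 0.963 CPM in the knockout against 1.60 ± 0.350 CPM (log2 fold change 2.13). Mief2, the paralog of Mief1, rose by 0.68 and Mtfr1l by 0.55. Mtfr2 fell by 1.11 on the log2 scale from 4.50 ± 1.58 CPM in wild type, and this call ended without wild-type replicate 2 (-0.80, edgeR adjusted p = 0.0612). The general membrane-scission gene Dnm2 (log2 fold change 0.03) and the actin nucleators Inf2 (-0.08) and Spire1 (0.08), which act where the endoplasmic reticulum wraps a mitochondrion, did not pass.

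Of 12 genes whose products modify Dnm1l or the mitofusins, 6 rose and 2 fell (median 0.12). Akap1, which anchors protein kinase A at the outer membrane where it phosphorylates Dnm1l, reached 94.9 ± 7.14 CPM in the knockout against 34.6 ± 3.57 CPM (1.46). The kinase's catalytic subunit gene Prkaca rose by 0.68. The outer-membrane ubiquitin and SUMO ligase genes Marchf5, listed as March5 in the annotation, and Mul1 rose by 0.80 and 0.99. Usp30, which removes ubiquitin at the outer membrane, rose by 0.32 (not without knockout replicate 1 or wild-type replicate 1, edgeR adjusted p = 0.0606 and 0.066). Pgam5 rose by 0.40 (edgeR adjusted p = 0.0404), a call that ended under upper-quartile scaling, DESeq2, no filter, the replicate block or the omission of any one library but knockout replicate 3. Cdk1, the mitotic kinase that phosphorylates Dnm1l at cell division, fell by 1.12, alongside the other 6 markers of dividing cells. The calcineurin subunit gene Ppp3cb fell by 0.33 on the log2 scale.

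Of 7 genes of mitochondrial transport, 4 rose and 2 fell (median 0.22). The adaptor gene Trak1 reached 125 ± 7.33 CPM in the knockout against 63.6 ± 4.06 CPM (0.97), the outer-membrane GTPase gene Rhot2 rose by 1.24 and Rhot1 by 0.41, and the kinesin gene Kif5b and Armcx3 fell by 0.43 and 0.37. Trak2 passed narrowly (0.22, edgeR adjusted p = 0.0438) and missed the threshold in 10 of 17 other settings, among them the omission of any one library but knockout replicate 2. Of 10 mitophagy genes 6 rose and 0 fell (median 0.41), with Bcl2l13 (1.11), Optn (0.94), Ulk1 (0.82) and Bnip3 (0.81) having the smallest p. Tbk1, another of the 6, rose by 0.295 (edgeR adjusted p = 0.022) and missed the threshold in 5 of 17 other settings. Pink1 missed the threshold at 75.4 ± 6.88 CPM in the knockout and 64.7 ± 3.28 CPM in wild type (edgeR adjusted p = 0.0685, or 0.0397 without knockout replicate 3).

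Genes commonly used to track the amount of mitochondria had a higher median than the members. Of 20 listed, 17 rose and 0 fell, where 22.6% of all genes tested were higher and 21.7% lower. The median log2 fold change was 1.096, and the list was led by Cyc1 (1.85), Cs (1.68), Uqcrc1 (1.65) and Sdha (1.48). The 7 outer-membrane genes of that list ranged from Tomm20 (0.11), Vdac3 (0.12) and Tomm22 (0.25), which did not pass, through Vdac2 (0.30), Vdac1 (0.35) and Tomm70a (0.48) to Tomm40 (1.01), which did. The call for Vdac2 ended without knockout replicate 2 (edgeR adjusted p = 0.0821) or any one wild-type replicate (0.0513 to 0.105), and under upper-quartile scaling (0.0713). Tomm22 passed without knockout replicate 3 (0.32, edgeR adjusted p = 0.0361). Mfn2 at 0.95 and Opa1 at 0.83 lay below the median of the list, and Mff and Fis1 below its lowest gene. The summed level of the 20 genes was 7923, 9256 and 6975 CPM in knockout replicates 1 to 3 and 3477 to 3846 CPM in wild type. Knockout replicate 2, the highest in that sum, was the highest of the knockout libraries for Mfn1, Mfn2, Opa1 and Fis1, the lowest for Dnm1l, Oma1 and Mff, and in the middle for Mief1. Ppargc1a, Ppargc1b and Esrra, known activators of Mfn2 transcription, rose by 2.97, 2.67 and 1.16. The 10 adipocyte markers listed rose as well, and a link between these rises and that of Mfn2 was not tested.

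**Figure D5:**
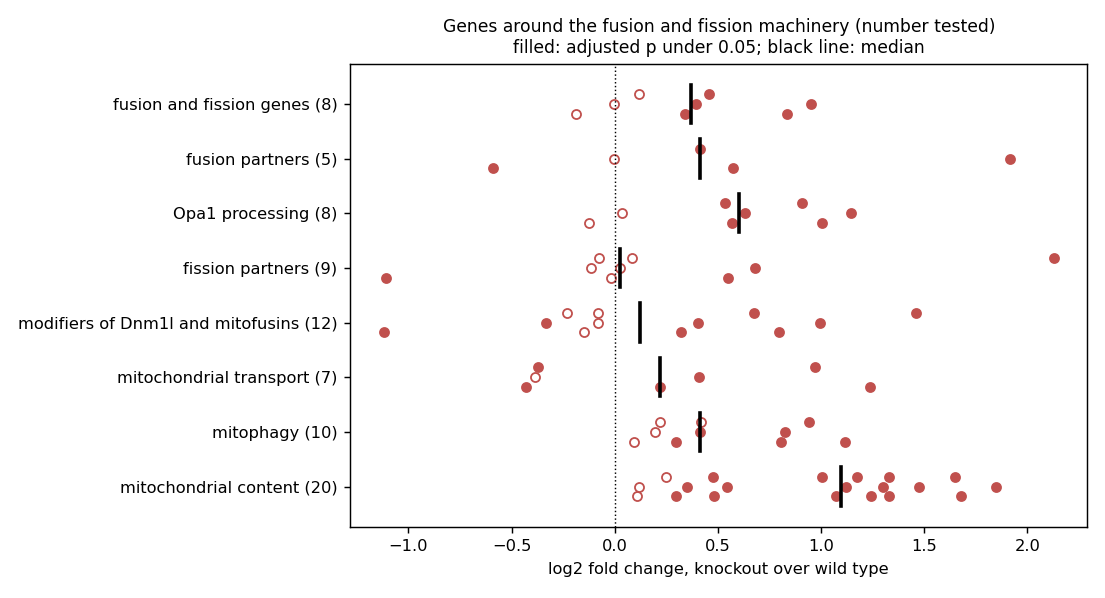
Log2 fold change of each tested gene in the 8 lists, knockout over wild type; filled points passed the test and black lines are list medians. The 20 genes of mitochondrial content have a median of 1.096, the 8 fusion and fission genes 0.37 and the 9 fission partners 0.03.

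Knockout replicate 3 stood apart in macrophage markers. Without knockout replicate 3 the log2 fold changes of Mfn2, Opa1, Mfn1, Mief1 and Dnm1l were 0.97, 0.84, 0.44, 0.52 and 0.33. All 5 passed in edgeR. Knockout replicates 1 and 2 were also above wild type in the summed macrophage markers (153 and 136 against 49.3 to 57.7 CPM). Leaving out replicate 3 therefore did not remove that difference, and the part of macrophages was not tested. Of 8 muscle markers 3 were tested, of which 1 (Des) was lower and 2 did not pass. All 8 summed to 8.80 to 11.7 CPM in the knockout and 20.1 to 35.2 CPM in wild type.

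By the Euclidean distance between mean-centred log2 CPM values over the 6 libraries, the protein-coding genes nearest to Mfn2 were Phyh (distance 0.0959) and D17Wsu92e (0.109), and those nearest to Opa1 were Pex19 (0.0798) and Elmod2 (0.1). Nit1 (0.0685) and Ppp6r1 (0.0771) lay nearest to Mfn1, Insl6 (0.0718) and Atp6v0c (0.0739) to Dnm1l, and Ctr9 (0.0820) and Pgap3 (0.0850) to Mief1. Rab11a (0.0561) and Sdccag8 (0.0614) lay nearest to Fis1, Nipsnap3b (0.0563) and Zfp740 (0.0570) to Mff, and Apex1 and Nupl2 (0.153 each) to Oma1. With 14816 genes and 6 libraries some gene lies close to any profile, so these names describe likeness in level only.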

How the data were processed

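RNA was sequenced as pairs of 150 bp after removal of ribosomal RNA, per the labels' protocols. The authors deposited a table of raw read counts, whole and without normalization, with Ensembl identifiers. STAR, featureCounts, mm10 and GRCm38 are named in the submitters' processing notes. The sources used here do not give versions, annotation, strand setting or the handling of multi-mapping reads, so counts of genes with overlapping or antisense neighbours are uncertain: Dnm1l and Mff share 243 and 195 exonic bases with opposite-strand genes, which had at most 6 counts.

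Each column was assigned through the column name its sample's label states. Symbols, coordinates and lengths came from GENCODE mouse release 21, which held 53706 of 53801 identifiers; near copies were sought with BLAST+ 2.17.0 (90% identity over at least 400 bases). Replicates were distinct libraries (chi-square per degree of freedom 10.2 to 26.3 within and 160 to 242 between genotypes). The test was that of edgeR 4.0.16 (R 4.3.3): filterByExpr (minimum count 10, minimum total 15), TMM factors from 0.975 to 1.02, robust legacy quasi-likelihood F test, 2-sided, genotype as the single term, Benjamini-Hochberg adjustment over 14816 genes at 0.05. CPM use the scaled totals of tested genes. Log2 fold changes compare knockout with wild type, positive where the knockout is higher, with standard errors as ±. The p-values of edgeR set the difference between genotypes against the spread between libraries, estimated with information shared across genes. P-values, intervals and floors do not cover differences in isolation or culture that coincided with genotype. Alternatives included DESeq2 1.42.0 and limma 3.58.1 (voom).

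The members and lists were chosen with earlier results of these data known. Named were all members, up to 4 genes with the smallest p among those that passed in each list, the 2 genes nearest to each member, and Ythdf1; other list members were picked for naming once their values were known. Marker lists were given as sums and counts.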

Additional observations from a re-analysis of the deposited data

How the results depend on the processing

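The 5 rises among the members (Mfn1, Mfn2, Opa1, Dnm1l and Mief1) passed in each of 17 other settings: other tools (DESeq2, limma-voom with quality weights, the newer edgeR fit), RLE or upper-quartile scaling, no filter or 1 CPM in 3 samples, the replicate block or the library name suffix in the model, coding genes only, mitochondrial genome transcripts removed, and 6 omissions of a library. For Mfn2 the log2 fold change ran from 0.87 to 1.01, of Opa1 from 0.78 to 0.89, of Mief1 from 0.40 to 0.53, of Mfn1 from 0.34 to 0.44 and of Dnm1l from 0.29 to 0.39. The count of members lower in the knockout, 0 in edgeR with 0 at an unadjusted p under 0.05 too and 0 in DESeq2, was 1 (Fis1) with limma-voom and 0 to 1 with 1 library left out; the cause was not tested. The sign of Mff turned in 4 settings and that of Oma1 without wild-type replicate 2 (-0.02), in none of which either passed. For the other 149 genes of the lists and the nearest genes, 2414 of 2531 values kept side and direction, 63 lost and 22 gained the call, and 0 called values changed sign.

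Same-numbered libraries of the 2 genotypes did not deviate together (r = -0.126, 0.0117 and -0.143 for numbers 1 to 3). These values show no pairing by number, but with 3 libraries per genotype they cannot exclude one. With the replicate block 3136 genes were higher and 2993 lower, against 3342 and 3219, and the members higher were 5 and lower 0. The within-number shift of Mfn2 minus Mfn1 was 0.56 (2-sided exact sign-flip permutation p = 0.25), that of Opa1 minus Oma1 0.69 (0.25) and that of Mff minus Fis1 0.18 (0.5); 3 pairs cannot go below 0.25. Depth limits Oma1 most among the members, at 117 to 214 counts.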
